A study of Homo sapiens with 4 samples.

Results

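The 39 genes described here encode the protein folding machinery of the endoplasmic reticulum and the unfolded protein response that adjusts it. They were taken as a list of symbols, and all 39 were found by Ensembl identifier among the 58736 features listed for each library. The list was divided by known role into 7 sensors and signalling genes, 11 chaperones and their partners, 7 disulfide enzymes, 11 genes of endoplasmic reticulum-associated degradation and 3 genes of the translocon and of vesicle transport. All 39 reached at least 1 FPKM in at least 2 libraries (FPKM, reads scaled by gene length and by a size for each library), so no member was lost to that filter.

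The libraries came from HEK293A cells, a human embryonic kidney line of epithelial cells, in a study of gene regulation by the flap endonuclease FEN1 guided by hairpin DNA probes. All wells were transfected with 1 µg of plasmid encoding FEN1, then with probes (500 pmol) after 48 h, and RNA was prepared after 72 h. One group received the probe named NT1_hp2 (replicates 2 and 3) and the other is labelled negative control (replicates 1 and 3), with 2 libraries in each. What NT1_hp2 targets, its sequence and what the negative control consists of could not be read from the labels, and no intended target was examined. A group without the FEN1 plasmid was not analysed here, and both groups carry its load. The labels do not state whether replicates were separate cultures, and the p-values therefore cover only library-to-library spread, which may be technical. In bulk RNA, a change in the number of cells and a change in RNA per cell cannot be told apart.

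Secretory and membrane proteins fold in the endoplasmic reticulum with the help of the chaperone BiP, lectin chaperones and enzymes that form disulfide bonds. When unfolded proteins accumulate, the sensors IRE1, ATF6 and PERK are released from BiP. IRE1 then splices the XBP1 mRNA, ATF6 is cut by Golgi proteases into a transcription factor, and PERK phosphorylates the initiation factor eIF2alpha. XBP1 and ATF6 raise the genes of chaperones and of the degradation machinery, which returns misfolded proteins to the cytosol. Gene-level values do not separate spliced from unspliced XBP1 mRNA, nor cut from uncut ATF6, so the activity of these branches was not measured.

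The promoter sequences of these genes are shown first because the response acts through short elements within them. RefSeq windows (GRCh38.p14), read on the gene's strand over the 250 bases before the annotated start, were found for 35 of the 39 members. The endoplasmic reticulum stress element ERSE, CCAAT and CCACG separated by 9 bases of any kind and bound by NF-Y and ATF6, was searched on both strands. It occurred for 8 of the 35 matched members (22.9%) and for 25 of 27305 genes in all (0.092%). Counted by window, since a gene can have several starts, it was in 9 of 43 windows of the members (20.9%) and in 26 of 35116 in all (0.074%). The matches are given below in the direction of the motif, with its fixed letters in capitals.
HSPA5: CCAATcggcggcctCCACG
XBP1: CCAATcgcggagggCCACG
ERO1B: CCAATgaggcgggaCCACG
PDIA6: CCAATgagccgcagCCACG
CANX: CCAATcttcacactCCACG
CALR: CCAATgatggtcgaCCACG
CRELD2: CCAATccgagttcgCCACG
HSP90B1, first match: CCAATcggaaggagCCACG
HSP90B1, second match: CCAATcgcgccgcaCCACG

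The spacer letters differed between genes, and in ERO1B, CALR, CRELD2 and the second match of HSP90B1 the motif lay on the opposite strand. The shorter element ERSE-II, ATTGG and CCACG separated by 1 base, occurred in 18 windows of all genes (0.051%) and in 3 members, HERPUD1, SDF2L1 and HYOU1, the last with 2 copies. TGACGTGG, the core of the XBP1-binding element, was in 215 windows (0.612%) and in DNAJC10 and HYOU1, where it overlapped an ERSE-II copy. The C/EBP-ATF letters TGATGNAA, through which ATF4 and CHOP can act, were in 1104 windows (3.14%) and in HERPUD1 alone among the members. Such matches describe letters, not binding, and a window without a match says nothing about a factor.

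Full windows follow for the 5 members that passed the expression test and held an ERSE or ERSE-II match, shown in capitals. They were shortened where needed to end before the GENCODE 29 gene begins, and are chr9:125241344-125241593 for HSPA5 (minus strand), chr22:28800598-28800819 for XBP1 (minus), chr1:236281986-236282208 for ERO1B (minus), chr16:56931892-56932047 for HERPUD1 (plus) and chr22:21642052-21642260 for SDF2L1 (plus).
HSPA5: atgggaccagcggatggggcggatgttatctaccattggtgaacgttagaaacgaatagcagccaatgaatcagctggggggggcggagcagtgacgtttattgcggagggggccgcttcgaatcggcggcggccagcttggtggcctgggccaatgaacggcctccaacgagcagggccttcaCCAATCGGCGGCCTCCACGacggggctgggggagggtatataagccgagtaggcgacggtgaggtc
XBP1: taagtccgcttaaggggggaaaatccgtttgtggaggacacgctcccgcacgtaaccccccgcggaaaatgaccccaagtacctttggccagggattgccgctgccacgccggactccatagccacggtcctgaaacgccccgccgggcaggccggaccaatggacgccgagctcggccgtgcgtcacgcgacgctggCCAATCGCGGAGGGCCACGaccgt
ERO1B: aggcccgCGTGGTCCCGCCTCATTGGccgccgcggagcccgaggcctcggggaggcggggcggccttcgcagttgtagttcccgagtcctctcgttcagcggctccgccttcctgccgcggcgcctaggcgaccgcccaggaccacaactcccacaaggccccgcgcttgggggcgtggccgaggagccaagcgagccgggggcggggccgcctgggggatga
HERPUD1: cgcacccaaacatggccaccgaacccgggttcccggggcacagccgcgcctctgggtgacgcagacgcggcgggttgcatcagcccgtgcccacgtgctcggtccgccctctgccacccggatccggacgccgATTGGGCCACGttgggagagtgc
SDF2L1: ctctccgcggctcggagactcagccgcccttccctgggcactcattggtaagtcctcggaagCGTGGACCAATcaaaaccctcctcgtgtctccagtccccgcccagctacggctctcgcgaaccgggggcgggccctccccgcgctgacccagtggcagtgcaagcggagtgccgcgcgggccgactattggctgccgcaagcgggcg

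The first 4 of these genes were higher in NT1_hp2 and SDF2L1 was lower, so an element of this kind was found on both sides. Of the 8 members with an ERSE match, 3 rose (HSPA5, XBP1, ERO1B), 0 fell and 5 did not pass, with log2 differences of −0.44 (CRELD2) to 0.52 (XBP1) and a median of 0.23. Of the 27 matched members without one, 7 rose and 2 fell, with a median of −0.06. Among all tested genes 5.0% were called higher and 8.92% lower. The 27 include HERPUD1, SDF2L1 and HYOU1, which hold an ERSE-II match, so they are not a set without any such element. The motifs were chosen with earlier results known, and the 2 sets were not compared by a test.

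Before the members, the libraries were checked. They held 12506203 to 14908687 recovered reads, and a member had 57 to 20952 reads in a library. Keratins and vimentin marked the line, with KRT8 at 84.2 and 86.6 FPKM in NT1_hp2 and 112 and 99.0 FPKM in the negative control. Of 7 markers listed for the line 5 averaged at least 1 FPKM, while PAX2 and NEFM were lower. Markers of renal tubule, leukocytes, endothelium and plasma cells averaged under 1 FPKM (0 of 15 reached it), with UMOD, CDH16, PTPRC and CD3E at 0 in all 4 libraries. The 4 fibroblast markers summed to 9.61 to 9.76 FPKM in NT1_hp2 and 9.80 to 10.01 FPKM in the negative control. FEN1, supplied to every well, was at 51.3 and 51.4 FPKM in NT1_hp2 and 73.7 and 64.5 FPKM in the negative control. It was called lower in NT1_hp2 (log2 difference −0.42, SE 0.086, limma-trend adjusted p = 0.0441), as were 8.92% of all tested genes. The value is that of the human FEN1 gene, and transcripts of the plasmid and of the cells' own gene were not told apart. Mitochondrial transcripts took 4.29% to 4.33% of reads in NT1_hp2 and 5.92% to 6.06% in the negative control.

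**Figure D1:**
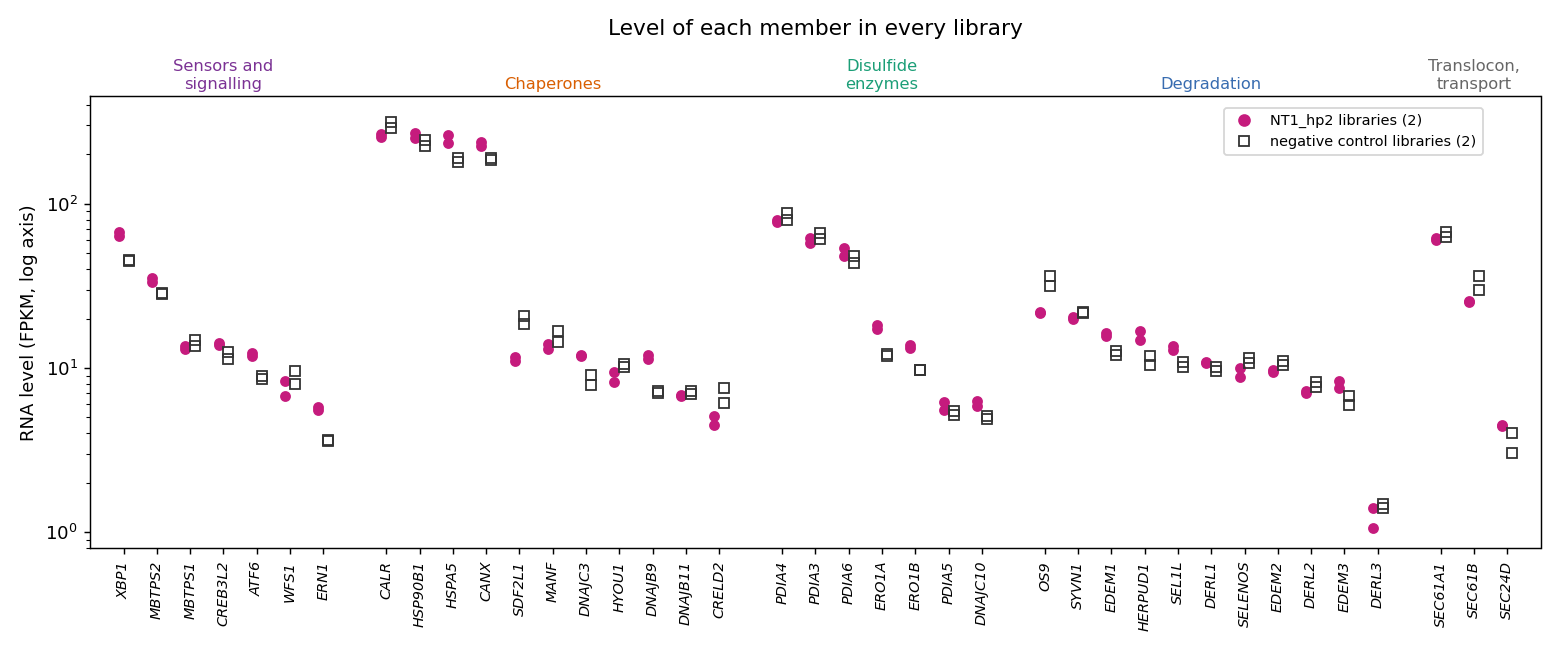
RNA level of each of the 39 members (FPKM, logarithmic y axis) in the 2 NT1_hp2 libraries (filled circles) and the 2 negative control libraries (open squares), by role and by mean level within a role. CALR, HSP90B1, HSPA5 and CANX lie at 180.5 FPKM or more in every library, and DERL3 is the lowest at 1.06 to 1.48 FPKM.

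Levels per gene length differed widely among the members. CALR, HSP90B1, HSPA5 and CANX, the most abundant, lay between 180.5 and 317 FPKM, and each overlapped its neighbour in that order over the 4 libraries. PDIA4, PDIA3, SEC61A1, XBP1 and PDIA6 followed at 43.6 to 87.8 FPKM. The sensor gene ERN1 (IRE1), at 3.58 to 5.78 FPKM, was among the lowest, and DERL3 was lowest. Exons of DERL3 share 77.0% of their length with SMARCB1 on the opposite strand, and the library kit does not mark strand, so its level is uncertain.

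Cells given NT1_hp2 held more mRNA of 10 members and less of 2 than the negative control, and 27 did not pass the test. The 10 were the signalling genes ERN1, XBP1 and ATF6, the BiP gene HSPA5 with its co-chaperones DNAJB9 and DNAJC3, the oxidases ERO1A and ERO1B, and the degradation genes HERPUD1 and EDEM1. SDF2L1, a chaperone partner, and OS9, a lectin of degradation, fell. Increases were 1.29-fold to 1.64-fold. Among all 16362 genes tested 5.0% were called higher and 8.92% lower, and 13.9% either way, by limma-trend on log2(FPKM + 1) with a Benjamini-Hochberg adjusted p under 0.05. The median log2 difference was 0.12 over the members and −0.0075 over all tested genes.

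Both NT1_hp2 libraries lay above both control libraries in 21 members and below both in 15, and 3 overlapped (WFS1, PDIA3 and DERL3). Among all tested genes 32.0% were wholly higher and 34.8% wholly lower. The 12 calls had adjusted p-values of 0.0340 to 0.0444, all close to the threshold. With limma-trend 0 members passed without NT1_hp2 replicate 2, NT1_hp2 replicate 3 or negative control replicate 1 (smallest adjusted p 0.138, 0.0924 and 0.106), and hardly any gene did (1 higher and 4 lower, 3 and 10, and 0 and 0 over all genes in these fits). At an unadjusted p under 0.05 there were 14, 15 and 18 members, where 21.3%, 26.5% and 27.5% of all genes passed. Without negative control replicate 3, 5 members were higher and 3 lower, where 3.44% and 8.35% of all genes were. In each of these fits all 39 members kept the sign of their difference. For the 21 and 15 members without overlap no other sign was possible, so this outcome is informative only for WFS1, PDIA3 and DERL3. Limma-voom on all 4 libraries called 17 higher and 6 lower, where it called 14.4% of all genes higher and 19.9% lower. It called the same 12 members and added CANX, CREB3L2, DNAJC10, EDEM3, MBTPS2, SEC24D and SEL1L as higher and CALR, CRELD2, HYOU1 and SEC61B as lower.

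**Figure D2:**
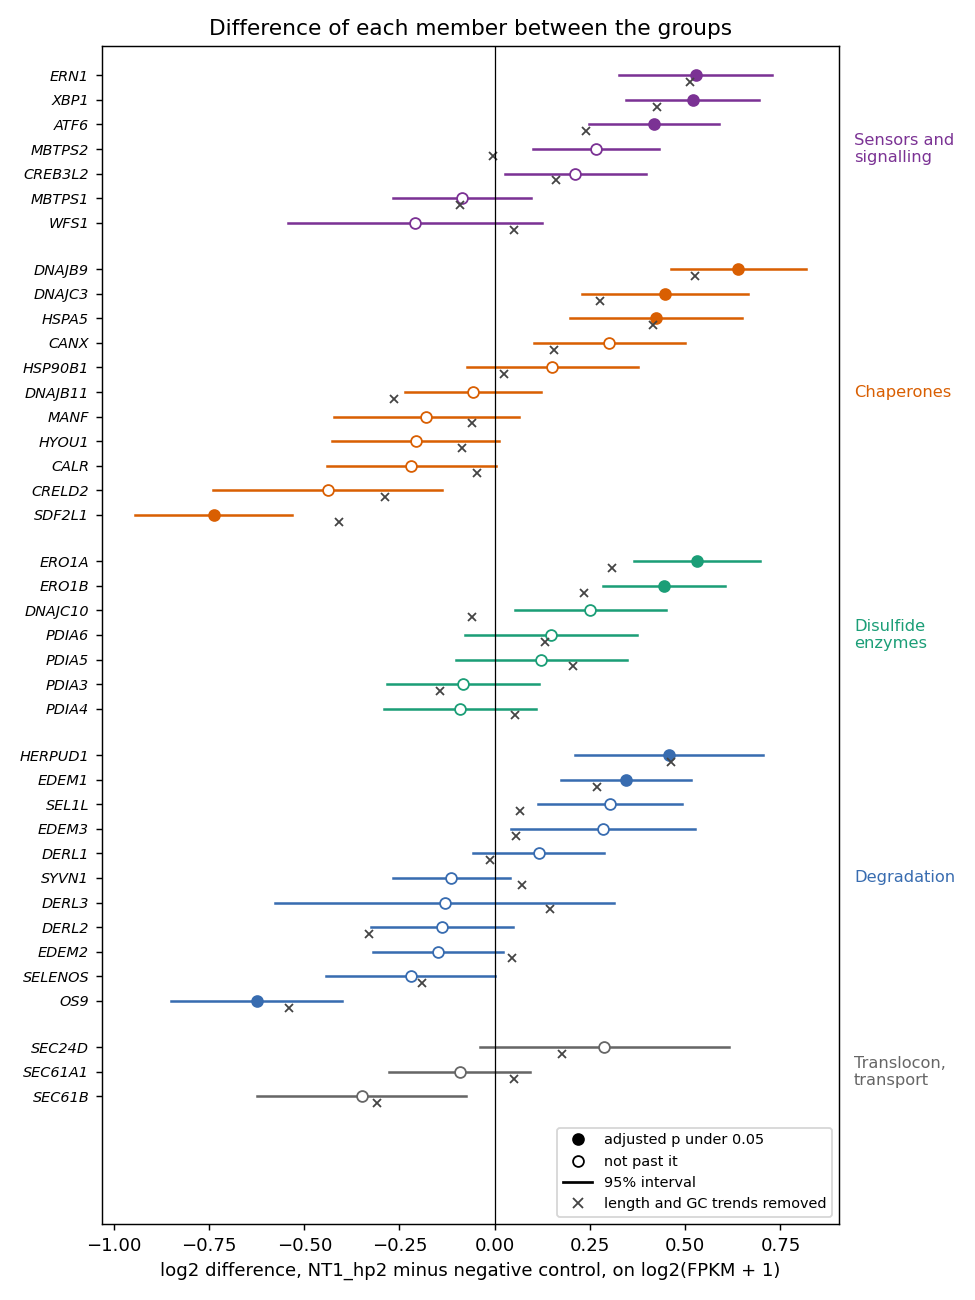
Log2 difference of each member between NT1_hp2 and the negative control on log2(FPKM + 1), with its 95% interval from limma-trend, by role. Filled points passed an adjusted p of 0.05, open points did not, and crosses give the difference after trends with exon length and GC content were removed. XBP1 and DNAJB9 remain past the threshold on the positive side after that removal, and SDF2L1 and OS9 on the negative side.

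The differences of the members moved with the GC content of their transcripts. Over the 39 members Pearson's r between GC content and log2 difference was −0.68 (Spearman's rho −0.66), and over 16350 tested genes it was −0.47 (rho −0.56), as a description across genes of the same 4 libraries. Of 20 members with GC content below the median of all tested genes (47.9%), 8 rose and 0 fell, where 8.55% of all genes on that side were called higher and 1.79% lower. On that side 13 members had an unadjusted p under 0.05 with a positive difference and 0 with a negative one, and limma-voom called 14 higher and 0 lower. Of all genes on that side 27.0% were higher and 6.13% lower at that unadjusted p, and 25.2% higher and 5.04% lower by limma-voom. Of the 19 members at or above that median 2 rose (ERN1 and HERPUD1) and 2 fell (SDF2L1 and OS9), where 1.46% of all genes were higher and 16.1% lower. At an unadjusted p under 0.05 these 19 gave 3 higher and 4 lower, beside 4.78% and 36.1% of all genes there, and by limma-voom 3 and 6, beside 3.69% and 34.8%.

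When smooth trends with exon length and GC content were removed from each library, XBP1 (log2 difference 0.43, adjusted p = 0.0421 by limma-trend) and DNAJB9 (0.53, 0.0421) remained higher. SDF2L1 (−0.41, 0.0451) and OS9 (−0.54, 0.0441) remained lower. Only 0.703% of all genes were then called higher and 1.15% lower. ERN1 (0.51, 0.0508), HSPA5 (0.41, 0.0532) and HERPUD1 (0.46, 0.0605) kept nearly their whole difference without passing. The difference after removal was 0.24 for ATF6, 0.28 for DNAJC3, 0.31 for ERO1A, 0.23 for ERO1B and 0.27 for EDEM1, and none of these passed.

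**Figure D3:**
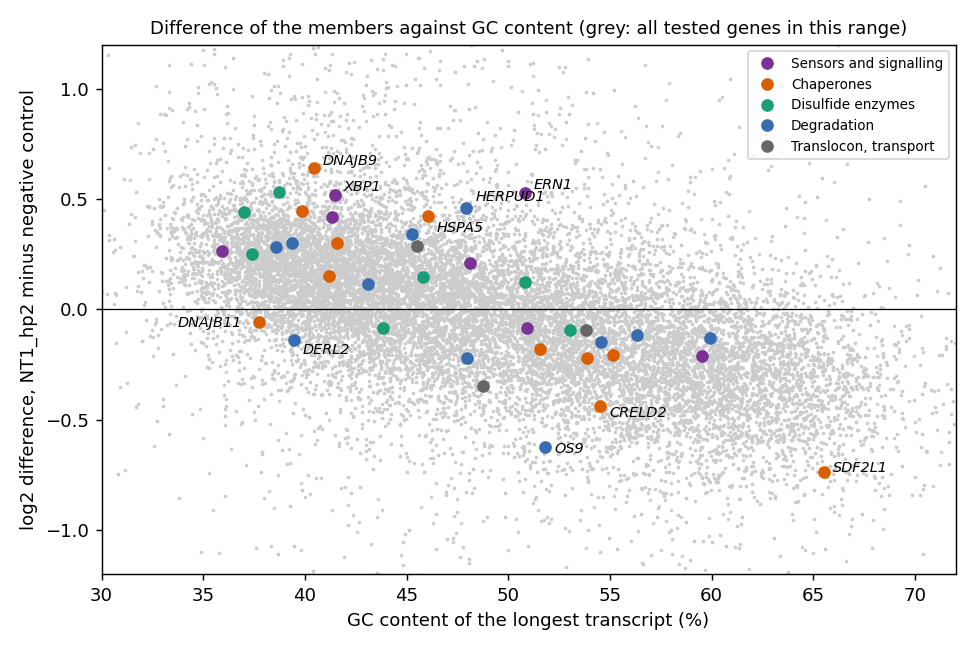
Log2 difference of the 39 members (coloured by role) and of all other tested genes within the plotted range (grey) against the GC content of the longest transcript in percent. Members with low GC content lie mostly above 0 and those with high GC content mostly below it, with DNAJB11 and DERL2 below 0 at low GC content and ERN1 and HERPUD1 above 0 nearer the middle.

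Sensors and signalling genes had 3 of 7 members higher and 0 lower. At an unadjusted p under 0.05 there were 5 higher and 0 lower, and 5 and 0 by limma-voom. Of all 16362 genes 6061 had an unadjusted p under 0.05 in either direction. At that p 27.0% of genes below the median GC content were higher and 6.13% lower. At or above that median these shares were 4.78% and 36.1%. Limma-voom called 14.4% of all genes higher and 19.9% lower. The counts of the other roles are to be read beside these shares. The median log2 difference of the role was 0.27, and it was 0.16 after the length and GC removal. ERN1 (chromosome 17, 64039142 to 64130819, GRCh38) encodes the IRE1 kinase and endonuclease. It was at 5.52 and 5.78 FPKM in NT1_hp2 and 3.65 and 3.58 FPKM in the negative control, and its log2 difference was 0.53 with an SE of 0.077 (limma-trend adjusted p = 0.0340). The 2 groups were tight and well apart.

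XBP1 (chromosome 22, 28794555 to 28800597), whose mRNA IRE1 cuts, was at 67.6 and 63.5 FPKM in NT1_hp2 and 45.7 and 45.1 FPKM in the negative control (log2 difference 0.52, SE 0.068, limma-trend adjusted p = 0.0340). ATF6 (chromosome 1, 161766294 to 161964070), the membrane-bound transcription factor, was at 12.3 and 11.9 FPKM in NT1_hp2 and 8.996 and 8.62 FPKM in the negative control. Its difference was 0.42 (SE 0.066, limma-trend adjusted p = 0.0353). All 3 genes had both NT1_hp2 libraries above both controls, as had 32.0% of all tested genes. XBP1 alone made up 42.4% to 43.6% of the summed FPKM of this role in NT1_hp2 and 37.2% to 37.7% in the negative control.

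The proteases that cut ATF6 had differences of opposite sign. MBTPS2, the site-2 protease, was at 35.2 and 33.4 FPKM in NT1_hp2 and 28.1 and 28.6 FPKM in the negative control, a log2 difference of 0.27 (95% interval 0.10 to 0.43) that did not pass (limma-trend adjusted p = 0.0557) and that was −0.0058 after the length and GC removal. MBTPS1, the site-1 protease, was at 13.6 and 13.1 FPKM in NT1_hp2 against 13.6 and 14.8 FPKM in the negative control, with an interval of −0.27 to 0.096. CREB3L2, a related transcription factor that the same proteases release, had a difference of 0.21 (0.026 to 0.40). WFS1, a membrane protein of endoplasmic reticulum calcium handling, had one of −0.21 (−0.54 to 0.12), with overlapping groups.

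Chaperones and their partners divided, with 3 of 11 higher and 1 lower (4 and 2 at an unadjusted p under 0.05, and 4 and 4 by limma-voom) and a median log2 difference of −0.06 that was 0.0050 under upper-quartile scaling and 0.0104 under library totals. HSPA5 (chromosome 9, 125234853 to 125241330), which encodes BiP, was at 261 and 236 FPKM in NT1_hp2 and 189 and 181 FPKM in the negative control. Its log2 difference was 0.42 (SE 0.087, limma-trend adjusted p = 0.0441). The groups did not overlap, although the NT1_hp2 libraries were farther apart than the controls.

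DNAJB9 (chromosome 7, 108569568 to 108574850), the BiP co-chaperone ERdj4 that holds IRE1 inactive, had the largest increase of any member. It was at 12.03 and 11.3 FPKM in NT1_hp2 and 7.20 and 7.07 FPKM in the negative control (log2 difference 0.64, SE 0.068, limma-trend adjusted p = 0.0340). DNAJC3 (chromosome 13, 95677139 to 95794989), a co-chaperone also known as an inhibitor of eIF2alpha kinases, was at 11.9 and 11.8 FPKM in NT1_hp2 against 7.86 and 9.03 FPKM in the negative control (0.45, SE 0.084, limma-trend adjusted p = 0.0405). Both genes were higher in each NT1_hp2 library than in either control. Exons of DNAJB9 share 6.45% of their length with THAP5 on the opposite strand, at a mean of 8.81 FPKM.

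SDF2L1 (chromosome 22, 21642261 to 21644298) moved the other way and had the largest decrease. It encodes a soluble component of BiP and DNAJB11 complexes, and was at 11.1 and 11.7 FPKM in NT1_hp2 and 20.8 and 18.6 FPKM in the negative control. Its log2 difference was −0.74 (SE 0.080, limma-trend adjusted p = 0.0340), and it has the highest GC content of the members (65.5%). DNAJB11, its co-chaperone partner, was at 6.81 and 6.76 FPKM in NT1_hp2 against 7.27 and 6.93 FPKM in the negative control, an interval of −0.24 to 0.12 on the log2 scale, and its sign turned positive with library totals and upper-quartile factors. Within a library, which no scaling affects, SDF2L1 amounted to 0.0424 and 0.0497 of the HSPA5 level in NT1_hp2 and to 0.110 and 0.103 in the negative control. These ratios were chosen after values were seen.

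The lectin chaperones, which hold glycoproteins with trimmed sugars, had differences of opposite sign. CANX, the membrane-bound calnexin, was at 238 and 223 FPKM in NT1_hp2 and 189 and 185 FPKM in the negative control, a difference of 0.30 (95% interval 0.10 to 0.498) without passing (limma-trend adjusted p = 0.0609). CALR, the soluble calreticulin, was at 266 and 253 FPKM in NT1_hp2 against 317 and 289 FPKM in the negative control, a difference of −0.22 (−0.44 to 0.0021). The CALR to CANX ratio was 1.12 and 1.13 in NT1_hp2 and 1.68 and 1.56 in the negative control. Their GC contents were 53.9% for CALR and 41.6% for CANX, and after the trend removal they differed from the control by −0.047 and 0.15.

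The remaining chaperones did not pass with limma-trend, while limma-voom called CRELD2 (adjusted p = 0.000544) and HYOU1 (0.0388) lower. HSP90B1, the endoplasmic reticulum HSP90, was at 271 and 251 FPKM in NT1_hp2 and 243 and 226 FPKM in the negative control. HYOU1, the nucleotide exchange factor of BiP, was at 8.27 and 9.40 FPKM in NT1_hp2 against 10.6 and 10.1 FPKM in the negative control, and CRELD2, a stress-induced secreted factor, at 5.07 and 4.47 FPKM in NT1_hp2 against 7.52 and 6.16 FPKM in the negative control (limma-trend adjusted p = 0.0654). MANF, a secreted factor that binds BiP, had a difference of −0.18 (95% interval −0.42 to 0.063). The level of HYOU1 relative to HSPA5 was 0.0317 and 0.0399 in NT1_hp2 and 0.0561 and 0.0558 in the negative control.

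Disulfide enzymes had 2 of 7 members higher and 0 lower (3 and 0 at an unadjusted p under 0.05, and 3 and 0 by limma-voom), with a median of 0.15. The increases were those of both ERO1 oxidases, which hand oxidizing equivalents to protein disulfide isomerases. ERO1A (chromosome 14, 52639916 to 52695900) was at 18.2 and 17.4 FPKM in NT1_hp2 and 11.8 and 12.2 FPKM in the negative control (log2 difference 0.53, SE 0.064, limma-trend adjusted p = 0.0340). ERO1B (chromosome 1, 236215555 to 236281985) was at 13.3 and 13.7 FPKM in NT1_hp2 against 9.66 and 9.67 FPKM in the negative control (0.44, SE 0.062, limma-trend adjusted p = 0.0340). Neither gene's groups overlapped, and both genes have low GC contents (38.7% for ERO1A and 37.0% for ERO1B).

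None of the isomerases themselves passed. PDIA4 was at 77.8 and 79.4 FPKM in NT1_hp2 and 87.8 and 79.96 FPKM in the negative control, with a 95% interval of −0.29 to 0.11. PDIA3, the glycoprotein-specific isomerase, had an interval of −0.28 to 0.12, PDIA6 one of −0.079 to 0.37 and PDIA5 one of −0.10 to 0.35. DNAJC10, a reductase that prepares proteins for degradation, was at 5.91 and 6.30 FPKM in NT1_hp2 and 5.07 and 4.87 FPKM in the negative control, a difference of 0.25 that was −0.061 after the trend removal. A processed copy of PDIA3, PDIA3P1, was at 4.11 and 4.36 FPKM in NT1_hp2 and 4.55 and 4.496 FPKM in the negative control. How reads that match both were counted is not given in the labels, so the level of PDIA3 is uncertain by an unknown amount.

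Degradation genes had 2 of 11 members higher and 1 lower (4 and 1 at an unadjusted p under 0.05 and by limma-voom), with a median log2 difference of −0.11 that was 0.055 after the length and GC removal and 0.00050 among genes averaging at least 5 FPKM. HERPUD1 (chromosome 16, 56932048 to 56944863), a membrane scaffold of the degradation complex, was at 16.7 and 14.8 FPKM in NT1_hp2 and 11.9 and 10.5 FPKM in the negative control (log2 difference 0.46, SE 0.096, limma-trend adjusted p = 0.0444). EDEM1 (chromosome 3, 5187646 to 5219957), which trims mannose from misfolded glycoproteins, was at 16.3 and 15.6 FPKM in NT1_hp2 against 12.03 and 12.7 FPKM in the negative control (0.34, SE 0.066, limma-trend adjusted p = 0.0416). In both genes the NT1_hp2 libraries were the higher ones.

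OS9 (chromosome 12, 57693955 to 57721557), the lectin that passes trimmed glycoproteins to SEL1L, fell. It was at 21.5 and 21.8 FPKM in NT1_hp2 and 36.4 and 31.5 FPKM in the negative control, and its log2 difference was −0.62 with an SE of 0.087 (limma-trend adjusted p = 0.0340). SEL1L, the adaptor, was at 12.8 and 13.6 FPKM in NT1_hp2 and 10.9 and 10.1 FPKM in the negative control, and SYVN1, its ubiquitin ligase, at 19.9 and 20.4 FPKM in NT1_hp2 against 22.1 and 21.8 FPKM in the negative control. Neither passed (limma-trend adjusted p = 0.0565 and 0.232). OS9 stood at 1.68 and 1.61 times the SEL1L level in NT1_hp2 and at 3.34 and 3.13 times in the negative control. SYVN1 shares 7.24% of its exon bases with FAU, a gene averaging 182 FPKM on the same strand, so reads of FAU may enter its value.

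The families within this role were uneven. EDEM3 had a difference of 0.28 (95% interval 0.043 to 0.53) and EDEM2 one of −0.15 (−0.32 to 0.022), neither past the threshold with limma-trend, while limma-voom called EDEM3 higher (adjusted p = 0.00624). Of the derlins, channel proteins for export to the cytosol, DERL1 was at 10.9 and 10.7 FPKM in NT1_hp2 and 10.2 and 9.60 FPKM in the negative control. DERL2 was at 7.06 and 7.25 FPKM in NT1_hp2 against 8.27 and 7.69 FPKM in the negative control. SELENOS, a selenoprotein that links derlins to the ATPase VCP, had a difference of −0.22 (−0.44 to 0.0018).

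Translocon and transport genes had 0 of 3 called in either direction by limma-trend (0 higher and 1 lower at an unadjusted p under 0.05, and 1 higher and 1 lower by limma-voom). SEC61A1, the pore of the translocon, was at 60.3 and 61.98 FPKM in NT1_hp2 and 67.7 and 62.8 FPKM in the negative control. SEC61B, a small subunit of it, was at 25.7 and 25.4 FPKM in NT1_hp2 against 36.2 and 29.7 FPKM in the negative control, a difference of −0.35 (95% interval −0.62 to −0.074, adjusted p = 0.0855). SEC24D, a cargo adaptor of COPII vesicles, was at 4.49 and 4.45 FPKM in NT1_hp2 against 3.02 and 3.996 FPKM in the negative control.

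**Figure D4:**
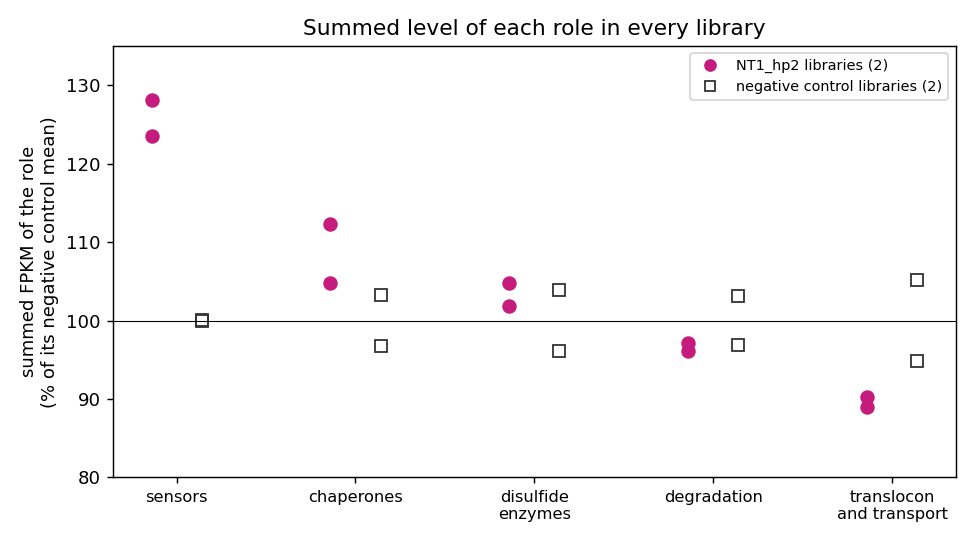
Summed FPKM of the members of each role in every library, as a percentage of the mean of the 2 negative control libraries (filled circles NT1_hp2, open squares negative control). The y axis starts at 80%. Sensors sum to 155 and 150 FPKM in NT1_hp2 and 121 FPKM in both control libraries, while degradation genes sum to 132 and 134 FPKM in NT1_hp2 against 142 and 133 FPKM in the negative control.

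The roles were also set side by side by their summed levels. Sensors and signalling genes summed to 152 ± 3.86 FPKM in NT1_hp2 and 121 ± 0.101 FPKM in the negative control (mean ± SD, n = 2 each). Chaperones summed to 1068 ± 51.6 FPKM in NT1_hp2 and 984 ± 45.4 FPKM in the negative control, and degradation genes to 133 ± 1.01 FPKM in NT1_hp2 and 137 ± 6.02 FPKM in the negative control. NT1_hp2 lay above both control libraries for sensors and chaperones and overlapped with them for degradation genes. Of the 11 chaperones 5 were wholly higher and 6 wholly lower in NT1_hp2, where 32.0% of all tested genes were wholly higher and 34.8% wholly lower. The higher sum of the chaperones came from the abundant genes HSPA5 (mean 249 FPKM in NT1_hp2, 185 in the negative control), CANX (231 and 187) and HSP90B1 (261 and 234). CALR, the most abundant, went the other way (260 in NT1_hp2 and 303 in the negative control). No test was made between the roles, since members are not replicates, and each role held members of both signs.

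The neighbouring genes of the pathway were examined in 7 lists of 131 other endoplasmic reticulum genes, of which 126 were tested. Of these 11 rose and 11 fell, where 5.0% of all tested genes were called higher and 8.92% lower, and the median log2 difference was 0.027. At an unadjusted p under 0.05 the 126 gave 31 higher and 24 lower, where 6061 of all 16362 genes passed in either direction. By direction 27.0% of all genes below the median GC content were higher and 6.13% lower, and 4.78% and 36.1% at or above it. By limma-voom the 126 gave 30 higher and 29 lower, where 14.4% of all genes were higher and 19.9% lower. The counts of single lists below are to be read beside these shares. The PERK branch had 4 of 11 tested genes higher and 0 lower (5 and 0 at an unadjusted p under 0.05, and 5 and 1 by limma-voom). EIF2AK3, which encodes PERK, was at 8.51 and 8.31 FPKM in NT1_hp2 and 5.84 and 6.30 FPKM in the negative control (limma-trend adjusted p = 0.0379). DDIT3 (CHOP), ATF3 and the pseudokinase TRIB3 were the others, with log2 differences of 1.18, 1.38 and 1.04, whereas ATF4 itself was at 147 and 144 FPKM in NT1_hp2 against 185 and 157 FPKM in the negative control without passing. DDIT3 exons overlap 3 other genes.

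Further thiol oxidoreductases and prolyl isomerases had 1 higher and 3 lower of 24 (4 and 4 at an unadjusted p under 0.05, and 5 and 4 by limma-voom). ERP44, which retains ERO1 enzymes in the secretory pathway, rose by 0.37, and ERP29 and the prolyl isomerase FKBP2 fell by 0.54 and 1.19 on the log2 scale. P4HB, the founding protein disulfide isomerase, was at 129.2 and 128.9 FPKM in NT1_hp2 and 134 and 127 FPKM in the negative control, with overlapping groups. Of 19 genes of N-glycosylation and glycoprotein quality control 1 rose, the folding sensor UGGT2 (0.51), and 4 fell, among them the glucosidases' genes MOGS (−0.64) and PRKCSH (−0.52), with 2 higher and 7 lower at an unadjusted p under 0.05 and by limma-voom.

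Of 16 translocon and signal peptidase genes 2 rose, the translocon-associated subunits SSR1 (0.31) and SSR3 (0.42), and 0 fell (6 and 2 at an unadjusted p under 0.05, and 4 and 4 by limma-voom). Of 22 cytosolic and membrane degradation factors 0 rose and 1 fell, TMUB1 (−0.53). At an unadjusted p under 0.05 and by limma-voom 4 were higher and 5 lower. Of all 16362 genes 6061 passed that unadjusted p in either direction, and limma-voom called 14.4% higher and 19.9% lower. COPII coat and retrieval genes had 2 of 17 higher, the cargo receptor LMAN1 (0.41) and the coat subunit SEC24A (0.43), and 0 lower (6 and 2 at an unadjusted p under 0.05 and by limma-voom). Among 17 other sensors and partners HSPA13, a microsomal HSP70, rose by 0.52, and 3 fell, including ATF6B (−0.46), the paralogue of ATF6, and the membrane co-chaperone DNAJB12 (−0.43). This list had 4 higher and 4 lower at an unadjusted p under 0.05, and 4 and 6 by limma-voom. ATF6B was at 21.4 and 22.3 FPKM in NT1_hp2 and 31.8 and 29.1 FPKM in the negative control, the opposite sign to ATF6. Of the 11 that rose in these 7 lists TRIB3 had a GC content of 60.9% and the other 10 had 34.9% to 49.7%, and the 11 that fell had 49.6% to 66.7%. With length and GC trends removed, 3 of the 11 that rose still passed (DDIT3, TRIB3 and ATF3) and 0 of the 11 that fell did. SESN2, a PERK branch gene named after its values were seen, passed as higher only after the removal. EIF2AK3 then had a log2 difference of 0.34 without passing (limma-trend adjusted p = 0.0680).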

How the data were processed

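RNA of 4 HEK293A libraries was sequenced after a kit that does not mark strand. Each deposited file holds 1 FPKM value per Ensembl gene. That these values are FPKM made by the authors was read from the values themselves, because multiplying by GENCODE 29 exon length gave whole reads for 100% of values in every library (tolerance 0.01), and the build is GRCh38.p12 per the submitters' processing notes. No aligner or counter is named in the labels. Genes reaching 1 FPKM in 2 or more libraries were fitted with limma-trend (limma 3.58.1, R 4.3.3, robust) on log2(FPKM + 1). The deposited values were not scaled further for this fit, and scaling factors were applied only in the scaling alternatives. The library size implied by the values was 1.035 and 1.044 times the recovered reads in NT1_hp2. In the negative control it was 0.966 and 1.005 times. The deposited values are therefore not scaled by the recovered totals, and how the size was set was not known. Scaling by library totals put the recovered reads in its place. Fold changes on that scale understate the change of low genes. P-values were adjusted over all 16362 tested genes by the Benjamini-Hochberg method, with a threshold of 0.05. Length and GC trends were removed with mgcv 1.9.3. The fit was tested on simulated data. The 14 alternatives covered pseudocount, filters, scaling, limma-voom on recovered reads, robustness, gene type, length and GC trends, and each library left out.

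Recovered depth was 13647614 and 13602537 reads in NT1_hp2 and 14908687 and 12506203 in the negative control, where 3 reads of a gene of 1 kb correspond to 0.208 to 0.239 FPKM, covering counting error only. Within a group libraries differed by more than counting noise (chi-square per degree of freedom 2.91 in NT1_hp2 and 6.57 in the negative control) and were kept as separate libraries, which does not show that they came from separate cultures. The members, roles, lists and motifs were chosen with earlier results of these data known. All members were named, and of each neighbouring list at most the 3 called genes with the smallest p, plus EIF2AK3, ATF4, DDIT3 and P4HB. SESN2 was named outside this rule, after its values were seen. Pair ratios were chosen after values were seen. Gene positions are from GENCODE 29 (GRCh38), and promoter sequences from RefSeq (GRCh38.p14).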

Additional observations from a re-analysis of the deposited data

How the results depend on the processing

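With 2 libraries a group the calls sat near the threshold and depended on the genes tested and the tool. The 10 members higher and 2 lower became 17 and 6 with limma-voom, 0 and 0 without the filter on low values (16 and 5 at an unadjusted p under 0.05, and 0 of all 36608 genes called, with 18.5% at that unadjusted p), and 2 and 2 with length and GC trends removed. They were 13 and 4 among genes averaging at least 5 FPKM (14.6% and 25.9% of all genes there), 15 and 4 among protein-coding genes (14.6% and 24.2%), and 13 and 2 with upper-quartile factors (9.05% and 8.71%) and with library totals (9.34% and 8.09%). Leaving out 1 library gave 0 to 5 higher and 0 to 3 lower. The median difference of sensors was 0.33 with upper-quartile factors, 0.34 with library totals, 0.16 with trends removed and 0.23 to 0.30 without 1 library. That of chaperones was 0.0050, 0.010, −0.05 and −0.088 to −0.027 in the same order. That of degradation genes was −0.046, −0.040, 0.055 and −0.13 to −0.020, and 0.00050 at a mean of at least 5 FPKM. Among single members DNAJB11 turned to 0.0050 and 0.010 with upper-quartile factors and library totals. With trends removed MBTPS2 turned to −0.0058, WFS1 to 0.049, PDIA4 to 0.054, DNAJC10 to −0.061, SYVN1 to 0.071, EDEM2 to 0.044, DERL1 to −0.011, DERL3 to 0.14 and SEC61A1 to 0.050, none called either way. The cause of these changes was not tested. No paired analysis was possible because the groups share only 1 replicate number.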
